A study of Mus musculus with 23 samples.

Results

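Transcripts of 10 genes of the contractile machinery of mammary myoepithelial cells were followed through sorted mouse mammary cells and mammary tumour cells. The genes are Acta2, Actg2, Myh11, Myl9, Mylk, Cnn1, Tagln, Lmod1, Smtn and Oxtr. The list was set by name, but with earlier results of these data known. All 10 were found among the 24391 genes of the normal table, the 24511 of the PY230 table and the 24322 of the C3-1-TAg table. Expression was measured in 23 RNA-seq libraries of 9 groups. Wild-type C57BL6J mice gave 4 groups of 2 libraries from normal mammary tissue. Fetal mammary stem cells, written fMaSC, were taken at embryonic day 18, and adult glands were sorted into basal, luminal progenitor and mature luminal populations. PY230 is a mouse mammary tumour cell line. Its cells were transplanted into C57BL6J mice of the same strain, and the tumours were sorted into a basal population with high SOX10 and luminal populations with either high or low SOX10, giving 2 libraries per population. C3-1-TAg mice, of the FVB strain, carry an SV40 T antigen transgene and develop mammary tumours spontaneously. From those tumours, whose titles all say basal, 5 libraries were made of cells high in SOX10 and 4 of cells low in it. No group received a treatment. PY230 tumours come from a single cell line, and the labels tie no library to an animal, so a p-value measures the spread between libraries. The values are RPKM, read counts scaled by transcript length and by library size. The 3 tables were made separately, so levels are compared only within a table.

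Myoepithelial cells form the outer, basal layer of mammary ducts and alveoli and squeeze milk out of the alveoli when oxytocin reaches them. Oxytocin binds the receptor Oxtr, which acts through Gq proteins and phospholipase C to release calcium. Calcium-bound calmodulin then turns on myosin light chain kinase (Mylk), which phosphorylates the regulatory light chain (Myl9) so that smooth muscle myosin (Myh11) pulls on actin filaments (Acta2, Actg2). Calponin (Cnn1), transgelin (Tagln), leiomodin (Lmod1) and smoothelin (Smtn) bind or organise these filaments. In smooth muscle most of these genes are controlled by serum response factor, which binds a DNA element called the CArG box, and several by TEAD factors, which bind CATTCC.

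Those 2 motifs were searched on both strands in RefSeq promoters of GRCm38.p6, each covering 250 bases before to 50 bases after a gene start. The table held 7 of the 10 genes and lacked Actg2, Myh11 and Tagln. The CArG box was searched only in its strict form, CCWWWWWWGG with W for A or T. Boxes with another base inside were therefore not counted. A strict CArG box stood in 1 of the 7, Myl9, against 1.63% of 32851 promoters of the same length. CATTCC stood in 4 of the 7 (Acta2, Mylk, Lmod1 and Smtn), against 14.7% of all promoters. No promoter of the 7 held both motifs in these forms, so no matches overlapped. Each matching stretch is shown with 25 bases on either side, 5′ to 3′ on the gene's strand, because all 10 genes were higher in basal than in luminal cells of the adult gland and of PY230 tumours. Capitals mark the motif, which reads GGAATG where it lies on the opposite strand.
Acta2, chr19:34255489-34255544, minus strand, motif start 146 bases before the gene start: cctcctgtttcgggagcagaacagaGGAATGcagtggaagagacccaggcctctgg
Mylk, chr16:34784767-34784822, plus strand, 158 bases before: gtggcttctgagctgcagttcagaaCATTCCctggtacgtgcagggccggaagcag
Myl9, chr2:156775278-156775337, plus strand, 161 bases before: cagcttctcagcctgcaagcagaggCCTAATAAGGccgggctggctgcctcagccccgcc
Lmod1, chr1:135324658-135324713, plus strand, 130 bases before: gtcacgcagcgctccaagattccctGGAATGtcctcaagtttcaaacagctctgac
Smtn, chr11:3539484-3539539, minus strand, 222 bases before: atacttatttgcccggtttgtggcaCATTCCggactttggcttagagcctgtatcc
A match describes the letters only, and a window without a match says nothing about a factor.

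The libraries held between 10056 and 12504 genes at 1 RPKM or more, and their absolute depth is unknown because the files hold no counts. In the normal table the 2 adult basal libraries agreed less well than the 2 of each other population, with r = 0.958 across genes on the log2 scale against 0.988 to 0.995. Adult basal library 1 was above library 2 for all 10 contractile genes, by 1.10-fold for Smtn up to 5.69-fold for Tagln. Krt5, Krt14 and Krt17, keratins of basal cells, were 2.05- to 2.28-fold higher in library 1 as well. Trp63, the transcription factor p63 of basal epithelium, was 1.78-fold higher in library 2. A list of 6 immune markers summed to 65.8 RPKM in library 1 and 6.47 RPKM in library 2. A list of 12 luminal markers summed to 3368 and 1928 RPKM in the adult basal libraries, 2346 and 2341 RPKM in fMaSC and 15852 to 22442 RPKM in the luminal ones. In these bulk libraries fewer contractile cells and less RNA per cell cannot be told apart.

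**Figure D1:**
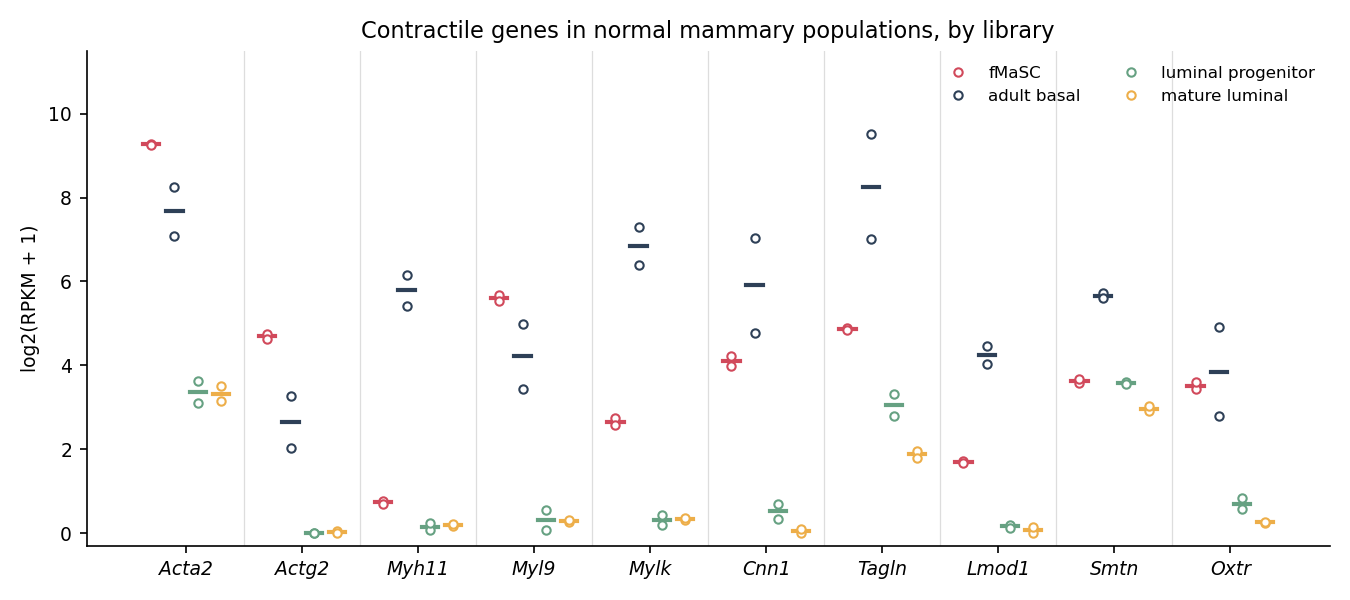
Level of each contractile gene in the normal mammary populations. The y axis is log2(RPKM + 1), circles are single libraries (n = 2 a group) and bars are group means. fMaSC lie above adult basal cells for Acta2, Actg2 and Myl9 and below them for Myh11, Mylk, Cnn1, Tagln, Lmod1 and Smtn, and both luminal populations lie below 1 RPKM for 7 of the 10 genes.

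Fetal and adult basal cells carried contractile transcripts in different proportions. Actin and light chain transcripts (Acta2, Actg2, Myl9) were higher in fMaSC, while the myosin heavy chain, its kinase and the 4 filament-binding proteins (Myh11, Mylk, Cnn1, Tagln, Lmod1, Smtn) were higher in adult basal cells, from 4.39-fold for Smtn to 85.0-fold for Myh11. Oxtr had means of 10.5 RPKM in fMaSC and 17.5 RPKM in adult basal cells, with overlapping libraries. By limma on log2(RPKM + 1), with Benjamini-Hochberg adjusted p under 0.05 as the threshold, 3 of the 10 were higher and 6 lower in fMaSC. Of the 12553 genes tested, 36.9% were higher and 23.4% lower (29.6% and 30.3% after quantile normalization). The median log2 fold change of the 10 genes was -1.92, beside 0.27 for all genes. The fit shares a single estimate of spread over all normal groups. Adult basal libraries agreed least, so these p-values can understate their spread. With only the compared groups in the fit, Myl9 (limma adjusted p = 0.0948) and Cnn1 (0.117) lost their call.

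The higher values of fMaSC went with transcript length across the whole table. Genes with a longest transcript below 1500 bases had a median log2 difference of 0.80 between fMaSC and adult basal cells (1755 genes). Genes of 5000 bases or more had a median of -0.52 (2793 genes). Adult basal library 1 minus library 2 sloped the same way, from 0.33 to -0.13 in these classes. The 3 contractile genes higher in fMaSC have longest transcripts of 1128 (Myl9), 1333 (Actg2) and 2035 bases (Acta2), and Myh11 and Mylk have 6549 and 7824 bases. Tagln, with 1595 bases, was short and lower in fMaSC. Values with each library's trend on length removed, a step added after seeing the data, are therefore given beside those of the deposited RPKM. With that step 1 of the 10 was higher (Actg2) and 6 were lower, beside 27.6% and 29.4% of all genes. What caused the trend was not tested.

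Acta2, smooth muscle alpha-actin, was at 621 and 608 RPKM in the 2 fMaSC libraries and at 306 and 135 RPKM in adult basal cells. The groups did not overlap, and the 2 fetal libraries lay close together while the adult ones differed 2.26-fold. The log2 fold change was 1.59 (SE 0.379, limma adjusted p = 0.00884). It fell to 0.70 with adjusted p = 0.102 once the length trend was removed, which ends the call. Luminal progenitors held 7.56 and 11.3 RPKM and mature luminal cells 10.3 and 7.91 RPKM, so Acta2 was read at a low level in both luminal populations as well. Of the 50-base stretches of Acta2 transcripts 0.326% also occur in Actg1, a non-muscle actin, and in the pseudogene Actg-ps1.

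Actg2, smooth muscle gamma-actin, was at 26.0 and 23.8 RPKM in fMaSC and at 8.68 and 3.05 RPKM in adult basal cells. It was listed at 0 in both luminal progenitor libraries and reached 0.031 RPKM in mature luminal cells. Its log2 fold change of 2.05 (SE 0.385, limma adjusted p = 0.00308) stayed past the threshold with the length trend removed (1.01, adjusted p = 0.0216) and in all 12 alternatives. No 50-base stretch of Actg2 was shared with another gene. Of the 3 genes higher in fMaSC, Actg2 alone passed the threshold in each of these alternatives.

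Myh11, the smooth muscle myosin heavy chain, was at 70.5 and 41.5 RPKM in adult basal cells and at 0.687 and 0.630 RPKM in fMaSC. Luminal progenitors (0.054 and 0.179 RPKM) and mature luminal cells (0.129 and 0.159 RPKM) lay lower still. The fetal level did not pass limma's test against either luminal population (log2 fold change 0.57, adjusted p = 0.125, and 0.54, adjusted p = 0.141), although the libraries did not overlap. With a pseudocount of 0.1 in place of 1 both passed, at 1.87 (adjusted p = 0.0151) and 1.64 (adjusted p = 0.0218). Against adult basal cells the log2 fold change was -5.06 (SE 0.279, adjusted p = 2.8e-05), the largest of the 10. Only the adult basal libraries reached 1 RPKM, so Myh11 entered the test through the group where it is high and left it when either adult basal library was left out.

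Mylk, the kinase that activates smooth muscle myosin, was at 155 and 83.2 RPKM in adult basal cells and at 5.66 and 4.93 RPKM in fMaSC. The log2 fold change was -4.19 (SE 0.318, limma adjusted p = 8.0e-05). Luminal libraries lay between 0.147 and 0.348 RPKM, so fMaSC stood above them and far below adult basal cells. Myl9, the light chain that Mylk phosphorylates, went the other way, with 49.9 and 45.1 RPKM in fMaSC and 30.9 and 9.90 RPKM in adult basal cells. Its log2 fold change of 1.38 (SE 0.471, limma adjusted p = 0.0371) passed the threshold in only 2 of the 12 alternatives. It was 0.32 (adjusted p = 0.495) with the length trend removed. Without fMaSC library 1 or 2 its adjusted p was 0.137 and 0.105, and without adult basal library 2 it was 0.0812.

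Tagln, transgelin or SM22-alpha, had the widest spread, with 729 and 128 RPKM in adult basal cells and 28.8 and 27.5 RPKM in fMaSC. Its log2 fold change was -3.40 (SE 0.692, limma adjusted p = 0.00443). It was -2.15 without adult basal library 1 and -4.65 without library 2. Of its 50-base stretches 43.8% also lie in the antisense gene Gm48529 and 3.75% in Pcsk7, and these unstranded reads cannot assign them. Cnn1, calponin, read 131 and 26.2 RPKM in adult basal cells and 14.9 and 17.7 RPKM in fMaSC, with a log2 fold change of -1.80 (SE 0.640, limma adjusted p = 0.0430). That call was lost without fMaSC library 1 (adjusted p = 0.148), fMaSC library 2 (0.107) or adult basal library 1 (-0.66, adjusted p = 0.0518), and it held with the length trend removed (-2.56, adjusted p = 0.00716).

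Lmod1, leiomodin, which nucleates smooth muscle actin filaments, was at 20.8 and 15.3 RPKM in adult basal cells and at 2.30 and 2.16 RPKM in fMaSC (log2 fold change -2.55, SE 0.222, limma adjusted p = 1.3e-04). Smtn, smoothelin, was at 52.2 and 47.3 RPKM against 10.9 and 11.8 RPKM (-2.04, SE 0.183, limma adjusted p = 1.4e-04). These were the most even of the 10 between the adult basal libraries, at 1.36- and 1.10-fold. Of the 10 genes Smtn had the smallest ratio of adult basal to luminal levels. Luminal progenitors held 11.1 and 10.8 RPKM of it, a log2 difference from fMaSC of 0.04 (adjusted p = 0.864) that was -0.42 after quantile normalization and -0.34 after median-of-ratios scaling, none past the threshold. A second transcript, Gm11946, overlaps Smtn on the opposite strand and holds 10.3% of its 50-base stretches.

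Oxtr, the oxytocin receptor, was at 29.1 and 5.89 RPKM in adult basal cells and at 9.87 and 11.1 RPKM in fMaSC. The fetal libraries lay between the 2 adult ones. The log2 fold change was -0.33 (SE 0.597, limma adjusted p = 0.654), and its sign depended on the adult library used. It was 0.73 without adult basal library 1 and -1.39 without library 2. With a lone adult basal library the spread between the adult ones does not enter the fit. Both fetal and adult basal cells stood above the luminal cells, which held between 0.185 and 0.775 RPKM.

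**Figure D2:**
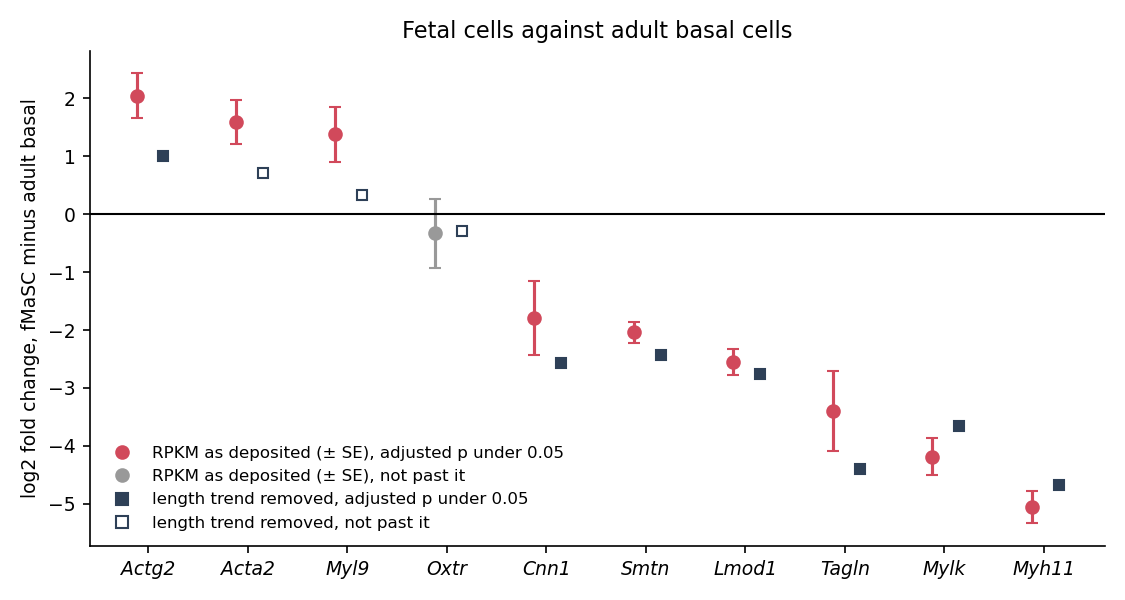
Log2 fold change of each contractile gene between fMaSC and adult basal cells (y axis, on the log2(RPKM + 1) scale). Circles with SE bars are from the deposited RPKM and squares from values with the length trend removed; red or filled marks have a limma adjusted p under 0.05. Actg2 stays above 0 with both, Acta2 and Myl9 lose their call, and the 6 lower genes stay between -1.80 and -5.06.

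Within a library the make-up of the contractile transcripts differed too. Acta2 made up 80.6% and 80.8% of the summed RPKM of the 10 genes in fMaSC and 19.95% and 27.3% in adult basal cells. Tagln made up 3.74% and 3.65% in fMaSC and 47.6% and 25.8% in adult basal cells. The ratio of Myh11 to Acta2 was 0.0011 and 0.0010 in fMaSC against 0.231 and 0.306 in adult basal cells. The ratio of Mylk to Myl9 was 0.113 and 0.109 against 5.02 and 8.41. Summed RPKM was 770 and 753 in fMaSC, inside the 496 to 1534 of the adult basal libraries. A ratio within a library needs no scaling between libraries, but the length trend moves it too, since Acta2 and Myl9 are shorter than Myh11 and Mylk.

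**Figure D3:**
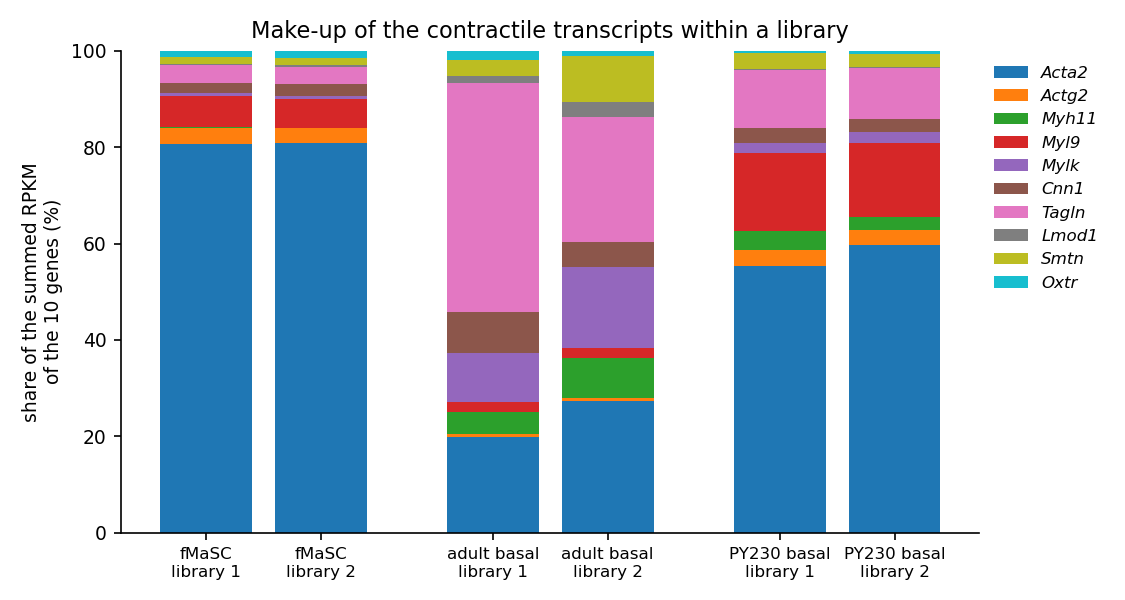
Share of each contractile gene in the summed RPKM of the 10 genes (y axis, %), for the 2 libraries each of fMaSC, adult basal cells and PY230 basal SOX10 high cells. Acta2 fills 80.6% and 80.8% of the fMaSC bars and 19.95% and 27.3% of the adult basal bars, where Tagln is 47.6% and 25.8%.

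Other genes of smooth muscle contraction went both ways between fetal and adult basal cells. Of 25 further contractile and thin filament genes 20 were tested, of which 7 were higher and 8 lower in fMaSC, beside 36.9% and 23.4% of all genes. With the length trend removed 4 were higher and 9 lower, beside 27.6% and 29.4%. Cnn2, a calponin of non-muscle cells (log2 fold change 3.02), Ldb3 (2.35) and Pdlim3 (2.29), both Z-line or filament-associated proteins, were higher. Synm, an intermediate filament protein (-2.71), Synpo2 (-2.21) and Filip1l (-2.02) were lower. All 6 kept their call with the length trend removed. The tropomyosins Tpm2 (-1.26) and Tpm1 (-0.60), which lie along the actin filament, were lower as well. Caldesmon (Cald1) was at 107 against 136 RPKM and did not pass the test (-0.34, limma adjusted p = 0.144).

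Of the non-muscle and sarcomeric relatives of the contractile genes 5 of 8 tested were higher in fMaSC and 1 lower, beside 36.9% and 23.4% of all genes. With the length trend removed 3 were higher and 0 lower, beside 27.6% and 29.4%. Cytoplasmic actin Actb was at 2399 against 513 RPKM (2.24, limma adjusted p = 5.4e-04), and Myl12b, a non-muscle light chain, at 415 against 111 RPKM (2.04). Smtnl2, a smoothelin relative, was at 8.23 against 0.376 RPKM (2.78). All 3 kept their call with the length trend removed. Actg1, the other cytoplasmic actin, was higher (0.94) and Myh9, a non-muscle myosin heavy chain, lower (-0.75), and neither call held with the trend removed. Myh10, another such heavy chain, was at 10.1 against 12.3 RPKM (-0.23, adjusted p = 0.467). The sarcomeric genes Acta1, Actc1, Lmod2, Lmod3 and Mylk2 to Mylk4 had means of at most 0.469 RPKM in either group and were not tested.

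Between the oxytocin receptor and myosin, 8 of 23 tested signalling genes were higher in fMaSC and 12 lower, beside 36.9% and 23.4% of all genes. With the length trend removed 9 were higher and 10 lower, beside 27.6% and 29.4%. Plcb4, a phospholipase C beta, was higher (12.3 against 0.879 RPKM, 2.83), and Plcb1 was lower (0.396 against 2.78 RPKM, -1.43). Calm3, a calmodulin gene (2.33), and Orai1, a calcium channel of the plasma membrane (1.82), were higher. Itpr3, a calcium release channel (-1.89), was lower as well. These 5 kept their direction and call with the trend removed.

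Among 14 tested regulators of smooth muscle genes 2 were higher in fMaSC and 7 lower, beside 36.9% and 23.4% of all genes. The counts were the same once the length trend was removed, beside 27.6% and 29.4%. Serum response factor (Srf) was at 3.31 against 6.16 RPKM (-0.73, limma adjusted p = 0.0190). Wwtr1, the TEAD coactivator TAZ, was at 41.6 against 150 RPKM (-1.82), Trp63 at 9.84 against 47.4 RPKM (-2.12) and Mef2c at 1.12 against 6.08 RPKM (-1.70). Fhl1 (1.89) and Nfib (1.55) were higher. Myocd, the myocardin coactivator of smooth muscle, was at 0.0169 RPKM in fMaSC and 0.0245 RPKM in adult basal cells and was not tested.

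Lists of cell markers were also compared between fMaSC and adult basal cells, where 36.9% of all genes were higher in fMaSC and 23.4% lower. None of 4 tested endothelial markers was called, and 1 (Cdh5) was lower with the length trend removed. Of 2 tested immune markers 1 was lower in fMaSC and none higher. Of 10 basal identity markers 5 were lower and 2 higher in fMaSC, and their summed RPKM was 688 and 680 in fMaSC and 3363 and 2167 in adult basal cells. Of 9 tested fibroblast markers 6 were higher and 1 lower in fMaSC, with sums of 141 and 163 RPKM against 57.6 and 68.2 RPKM. Of 10 pericyte and vascular smooth muscle markers 6 were tested, of which 1 was higher and 2 lower, with sums of 33.2 and 36.3 RPKM in fMaSC against 80.0 and 91.5 RPKM. Mcam made up most of the adult sum, at 68.1 and 77.2 RPKM. Over the other 9 markers, means in adult basal cells ran from 0 RPKM (Kcnj8) to 3.70 RPKM (Abcc9), and those in fMaSC from 0 RPKM (Higd1b) to 13.0 RPKM (Ndufa4l2). Of 6 fat cell markers 4 of the 5 tested were higher in fMaSC and none lower, led by Car3 (82.7 against 0.0956 RPKM, 6.26). With the length trend removed 2 basal identity markers were higher and 6 lower, and 6 fibroblast markers were higher and 0 lower. For pericyte markers these counts were 2 and 2, and for fat markers 4 and 0, beside the shares given above for that setting. The fat list summed to 237 and 211 RPKM in fMaSC and to 66.5 and 233 RPKM in adult basal cells, where Fabp4 made up nearly all of it. Malat1, a nuclear long non-coding RNA, took 0.564% and 0.460% of the summed RPKM in fMaSC and 3.499% and 5.88% in adult basal cells. Depth relative to fMaSC library 1, a rough estimate from the steps between low values, was 0.946 in fMaSC library 2 and 0.460 and 0.384 in adult basal cells. Skeletal muscle markers summed to at most 1.48 RPKM in any normal library. The part of these markers, of Malat1 and of depth in the differences was not tested.

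In the adult gland the contractile genes set basal cells apart from luminal cells. All 10 were higher in adult basal cells than in luminal progenitors, where 21.0% of all genes were higher and 14.5% lower. All 10 were also higher than in mature luminal cells, where the shares were 28.8% and 19.8%. These comparisons share the adult basal libraries with each other and with the fetal comparison. Actg2, Mylk, Myl9, Cnn1, Oxtr and Lmod1 reached 1 RPKM only in fMaSC and adult basal libraries, and Myh11 only in adult basal ones. They entered the test through groups where they are high, so these counts are not independent of the filter. Actg2 was listed at 0 in luminal progenitors. For the other 9 genes the ratio of means against them ran from 4.54-fold for Smtn to 481-fold for Myh11 and Mylk, with Acta2 at 23.4-fold, Tagln at 57.6-fold and Oxtr at 27.6-fold. Log2 fold changes ran from 2.08 to 6.53 and limma adjusted p from 4.6e-05 to 0.00693. No member's adult basal libraries overlapped either luminal population. With 2 libraries a group this says little, and the share of all genes without overlap is not given here. Of the 25 further contractile genes 10 of 20 tested were higher than in luminal progenitors and 1 lower.

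Fetal cells were above luminal cells for most of the 10 genes. Against luminal progenitors 7 were higher, beside 35.5% of all genes higher and 15.0% lower. Of these, Actg2, Mylk, Myl9, Cnn1, Oxtr and Lmod1 entered the test only through fMaSC and adult basal libraries. Myh11 (0.57), Smtn (0.04) and Tagln (1.81, limma adjusted p = 0.0623) did not pass. Myh11 passed with a pseudocount of 0.1, and Tagln with only the libraries of the compared groups (adjusted p = 0.0011) or a replicate block (0.0337). Against mature luminal cells 9 were higher, beside 41.7% of all genes higher and 14.7% lower, and Myh11 passed only with a pseudocount of 0.1. The Smtn call of 0.66 (adjusted p = 0.0182) ended with quantile normalization (0.08), median-of-ratios scaling (0.19) or the length trend removed (0.05), and when either fMaSC library (adjusted p = 0.0902 and 0.138) or either mature luminal library (0.0855 and 0.0539) was left out. The largest log2 fold changes in both were those of Acta2 (5.91 and 5.94) and Myl9 (5.29 and 5.30).

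Few differences were seen between the 2 luminal populations. None of the 10 passed limma's test between luminal progenitors and mature luminal cells, and 1, Smtn, had an unadjusted p under 0.05 (0.61, adjusted p = 0.0521), beside 13.4% of all genes higher in progenitors and 8.63% lower. Tagln was at 9.002 and 5.88 RPKM in progenitors and 2.90 and 2.45 RPKM in mature luminal cells, without overlap (1.18, adjusted p = 0.275). Summed RPKM of the 10 genes was 29.5 and 29.8 in progenitors and 20.5 and 18.6 in mature luminal cells.

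The split of called genes into higher and lower moved with the scaling in all 6 normal comparisons. Higher genes made up 59.2% to 73.9% of the calls, and 46.7% to 50.8% after quantile normalization. The median of all genes was 0.39 and 0.53 for fMaSC against luminal progenitors and mature luminal cells and within 0.13 of 0 in the adult comparisons. Relative to the 0.27 of the fetal and adult basal comparison, Acta2 was 1.32 higher, Actg2 1.77 and Myl9 1.10, and the 6 lower genes were between -2.07 and -5.33.

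PY230 basal SOX10 high cells carried the full contractile set at high levels. All 10 genes were higher than in luminal SOX10 high cells, where 13.8% of all 13136 genes tested were higher and 28.2% lower. All 10 were also higher than in luminal SOX10 low cells, where the shares were 21.8% and 33.4%. Oxtr and Lmod1 reached 1 RPKM only in the basal libraries, and Mylk only in basal and luminal SOX10 high ones. They entered the test through groups where they are high, so these counts are not independent of the filter. Both comparisons use the same 2 basal libraries, and no luminal library overlapped them for any of the 10. With 2 libraries a group this says little, and the share of all genes without overlap is not given here. Acta2 was at 1904 and 1670 RPKM in the basal cells, the highest gene of library 1 and the third of library 2. It was at 46.5 and 56.7 RPKM in luminal SOX10 high and at 35.1 and 18.7 RPKM in luminal SOX10 low cells. The log2 fold changes were 5.09 (SE 0.285, limma adjusted p = 9.4e-05) and 6.06 (adjusted p = 3.2e-05).

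The motor genes followed Acta2 in these tumours. Myh11 was at 131 and 78.3 RPKM in the basal cells, at 2.62 and 2.55 RPKM in luminal SOX10 high and at 1.59 and 1.42 RPKM in luminal SOX10 low cells. Myl9 was at 555 and 427 RPKM against 14.8 and 16.0 RPKM and 9.62 and 6.86 RPKM. Mylk was at 73.8 and 62.8 RPKM against 2.37 and 2.63 RPKM and 0.991 and 0.830 RPKM. Each was 27.3- to 40.4-fold above the luminal SOX10 high mean. Actg2 was at 116 and 85.3 RPKM in the basal cells and reached at most 3.83 RPKM in luminal libraries.

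Among the filament-binding proteins Tagln was at 414 and 297 RPKM in the basal cells and between 12.2 and 22.7 RPKM in the luminal libraries. Cnn1 was at 105 and 75.3 RPKM and at most 2.65 RPKM in luminal libraries. Lmod1 was at 10.6 and 5.84 RPKM against at most 0.751 RPKM, and Oxtr at 17.3 and 17.0 RPKM against means of 0.366 and 0.473 RPKM. Smtn again differed least, with 112 and 78.8 RPKM against 25.8 to 35.6 RPKM (log2 fold change 1.39, limma adjusted p = 0.00196, against luminal SOX10 high cells). Oxtr and Lmod1 reached 1 RPKM only in the basal libraries and so left the test when either was left out.

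The proportions in PY230 basal cells were read the same way. Acta2 made up 55.4% and 59.7% of the summed RPKM. The ratio of Myh11 to Acta2 was 0.0687 and 0.0469, and that of Mylk to Myl9 was 0.133 and 0.147. These ratios are set beside the normal ones without a test, since the tables were made separately.

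Most further contractile genes were higher in PY230 basal cells too. Of 24 tested 20 were higher than in luminal SOX10 high cells and 2 lower, beside 13.8% and 28.2% of all genes. Tpm2 was at 802 against 32.5 RPKM (4.57), Tpm1 at 489 against 133 RPKM (1.88), Cald1 at 119 against 32.0 RPKM (1.88) and the filamin Flna at 398 against 64.4 RPKM (2.61). Tagln2, a transgelin of non-muscle cells, was lower (161 against 473 RPKM, -1.55). Of 15 tested regulators 9 were higher and 1 lower, among them Srf (24.8 against 12.9 RPKM, 0.89), Mef2c (3.07) and Trp63 (4.11), while Myocd was at 0.004 and 0 RPKM. Of the 26 signalling genes 5 were higher and 8 lower, close to the shares over all genes. The calcium channel gene Cacna1c was among the higher, at 6.34 against 0.408 RPKM (2.38).

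Markers of other cells were read in the PY230 libraries as well. All 10 basal identity markers were higher in basal than in luminal SOX10 high cells, and all 12 luminal markers lower. Over all genes 13.8% were higher and 28.2% lower. Of 8 tested pericyte markers 4 were higher and 1 lower, with sums of 83.7 and 125.96 RPKM against 87.6 and 80.3 RPKM. Of 10 fibroblast markers 2 were higher, with sums of 212 and 358 RPKM against 109 and 203 RPKM. Against luminal SOX10 low cells 7 of the 8 pericyte markers were higher and 1 lower (luminal sums 43.3 and 44.2 RPKM), and 5 of the 10 fibroblast markers were higher (141 and 68.5 RPKM). Over all genes 21.8% were higher and 33.4% lower there. Basal library 2 was above library 1 in the pericyte and fibroblast sums and below it for all 10 contractile genes. The part of these markers in the differences was not tested.

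Between SOX10 high and low luminal PY230 cells 2 of the 10 genes passed limma's test, and 4 had an unadjusted p under 0.05. The median log2 fold change of the 10 was 0.49, beside 0.01 for all genes. Ratios of means, SOX10 high to low, ran from 0.77 for Oxtr to 3.73 for Lmod1, both of them below 1 RPKM in these cells. Oxtr alone had a lower mean in the SOX10 high cells, and Actg2 was 2.22-fold higher without a call. Mylk (2.37 and 2.63 against 0.991 and 0.830 RPKM, log2 fold change 0.87, limma adjusted p = 0.0137) and Myl9 (14.8 and 16.0 against 9.62 and 6.86 RPKM, 0.84, adjusted p = 0.0278) were higher in the SOX10 high cells. None was lower, beside 12.6% of all genes higher and 10.0% lower. Acta2 did not overlap either, at 46.5 and 56.7 against 35.1 and 18.7 RPKM, and narrowly missed the threshold (0.97, adjusted p = 0.0521). It passed after rescaling to TPM (1.08, limma adjusted p = 0.0498) and was 1.41 without SOX10 low library 1. The calls of Mylk and Myl9 were not firm. Without SOX10 high library 1 or 2 Myl9 lost its call (adjusted p = 0.0890 and 0.0617), without SOX10 low library 1 Mylk did (0.0540), and without SOX10 low library 2 both did (0.0915 for Mylk and 0.165 for Myl9). Of 10 basal identity markers 7 were higher in the SOX10 high cells, and of 3 tested immune markers 2 were (Tyrobp, 12.0 against 4.49 RPKM, and Lyz2, 26.4 against 9.56 RPKM). The part of these cells in the calls was not tested. Across the PY230 comparisons the share of higher genes among calls moved with scaling, from 32.9% to 49.2% for basal against luminal SOX10 high with median-of-ratios scaling. Rescaling to TPM moved it from 39.5% to 52.5% for basal against luminal SOX10 low, and from 55.6% to 77.0% between the luminal groups.

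**Figure D4:**
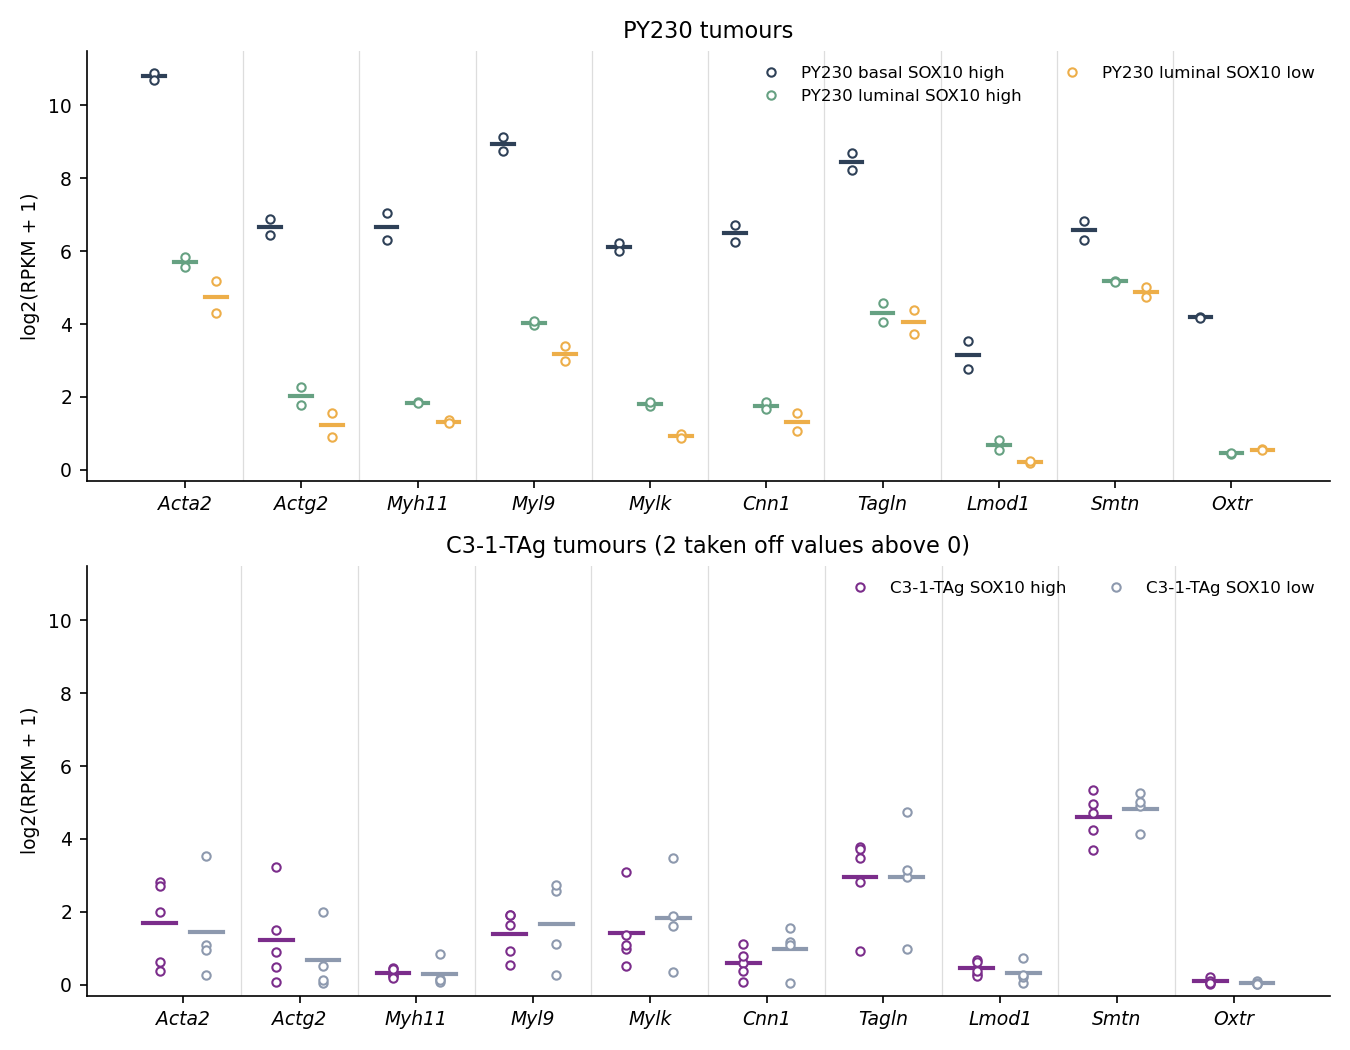
Level of each contractile gene in PY230 (top) and C3-1-TAg tumour cells (bottom). The y axis is log2(RPKM + 1), circles are single libraries and bars group means (n = 2 for each PY230 group, 5 and 4 for C3-1-TAg SOX10 high and low). The PY230 basal libraries lie above all luminal ones for each of the 10 genes, and the C3-1-TAg groups overlap for each. The shares of all genes that do so are not given here.

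C3-1-TAg tumour cells, though titled basal, held little of the contractile set apart from Smtn. Myh11 was at most 0.800 RPKM and Oxtr at most 0.149 RPKM in any of the 9 libraries, and Lmod1 also stayed below 1 RPKM. Summed RPKM of the 10 genes lay between 14.9 and 78.1, of which Smtn alone made up 36.7% to 90.5%. The 10 basal identity markers summed to 523 to 1532 RPKM in the SOX10 high and 751 to 1348 RPKM in the SOX10 low libraries. Krt14 (means of 333.5 RPKM in SOX10 high and 520.1 RPKM in SOX10 low cells), Krt17 (145 and 245.3) and Igfbp5 (271.1 and 76.88) were the highest of them. Igfbp5 was also high in normal luminal progenitors (513.8 RPKM). Means of Krt5 and Trp63 lay between 5.29 and 14.05 RPKM, and Cdh3 and Snai2 were too low to be tested. Levels were not tested against those of another table, because the tables were normalized separately and 2 was taken off each value above 0 here.

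No contractile gene passed the test between C3-1-TAg SOX10 high and low cells. Of the 10 genes 6 were tested and Actg2, Myh11, Oxtr and Lmod1 were too low. By limma 0 of the 6 were called and 0 had an unadjusted p under 0.05, beside 0.0418% of 11948 genes higher and 0 lower. The exact two-sided permutation test over all splits of 5 and 4 libraries gave p between 0.318 (Cnn1) and 1 (Tagln), where the smallest possible is 0.00794. Log2 differences, SOX10 high minus low, ran from -0.42 for Mylk (SE 0.643) to 0.25 for Acta2 (SE 0.721), and with such errors even a change of 1 on the log2 scale could go undetected. Leaving out single libraries changed the sign for Acta2, Mylk, Myl9 and Tagln.

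Acta2 varied widely inside each C3-1-TAg group, and libraries high in it were high in fibroblast markers. Acta2 was at 0.293, 0.541, 3.001, 6.04 and 5.52 RPKM in SOX10 high libraries 1 to 5 and at 10.5, 0.192, 1.12 and 0.920 RPKM in SOX10 low libraries 1 to 4. The sum of 10 fibroblast markers was 4.76, 28.4, 146, 327 and 388 RPKM and 435, 7.53, 97.8 and 28.7 RPKM in the same order. SOX10 low library 1 was highest for both, and SOX10 high library 1 and SOX10 low library 2 were lowest for both. In SOX10 low library 2, 2 of the 10 fibroblast markers were at 0, and in the other 8 libraries none was. The same library 1 of SOX10 low had immune markers at 991 RPKM, against 3.98 to 52.2 RPKM in the others. The part of these cells in the Acta2 values was not tested.

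Tagln followed the same order in part, with 0.897, 6.06, 12.6, 10.2 and 12.2 RPKM in SOX10 high and 25.5, 0.955, 6.78 and 7.86 RPKM in SOX10 low libraries. Mylk did not. It was highest at 7.51 RPKM in SOX10 high library 2 and at 10.2 RPKM in SOX10 low library 3, where Acta2 was 0.541 and 1.12 RPKM, and where the pericyte and vascular smooth muscle list was also highest (104 and 83.5 RPKM, against 16.1 to 36.7 RPKM elsewhere). The part of pericytes or vascular smooth muscle in the Mylk values was not tested. Smtn ran from 11.9 to 39.9 RPKM in SOX10 high and from 16.7 to 37.2 RPKM in SOX10 low libraries. Actg2 was above 1 RPKM in 3 of the 9 libraries, with 8.47 RPKM in SOX10 high library 3.

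**Figure D5:**
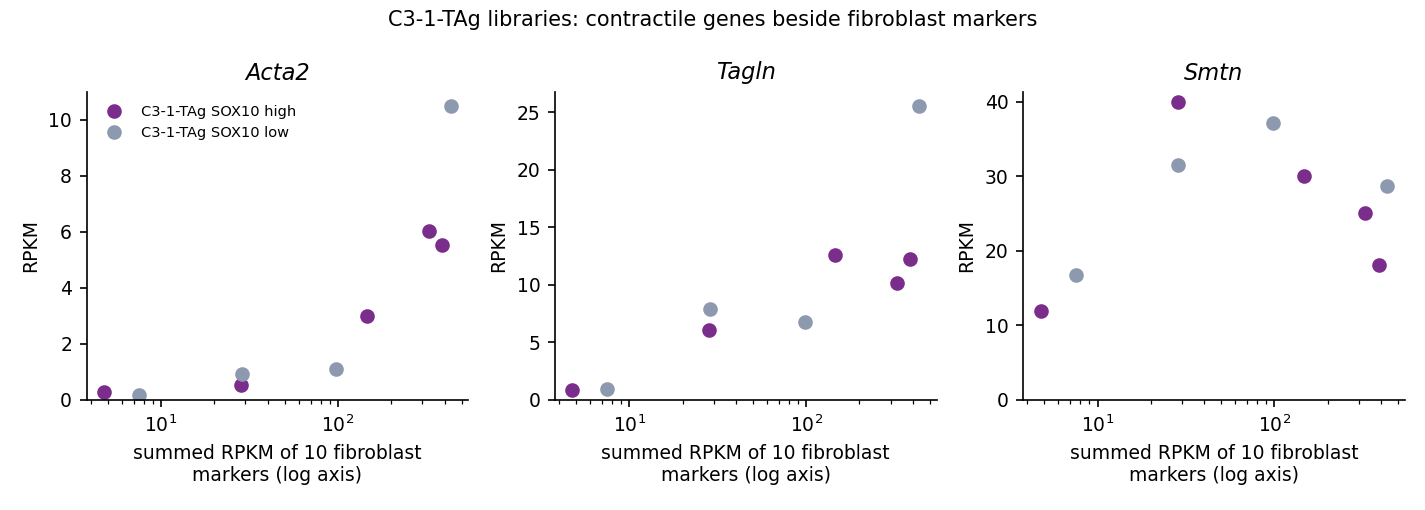
RPKM of Acta2, Tagln and Smtn (y axes) against the summed RPKM of 10 fibroblast markers (x axis, log scale) in the 9 C3-1-TAg libraries, coloured by group. The library with the highest fibroblast sum, 435 RPKM, also has the highest Acta2 (10.5 RPKM) and Tagln (25.5 RPKM), while Smtn is highest at 39.9 RPKM where the sum is 28.4 RPKM.

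The genes whose levels were most like a contractile gene across libraries differed between tables. Likeness was Pearson's r of log2(RPKM + 1) over the libraries of a table, among genes reaching 10 RPKM, and describes libraries that share groups. Over the 8 normal libraries and 8051 genes Acta2 was most like Rcn3 (r = 0.996), Dpysl3, Schip1, Ckb and Il17b (0.989). Myh11 was most like Speer4e (0.996), Cpxm2, Brwd1, Tmem200a and Speer4d (0.992), and Oxtr most like Rabl6 (0.993), Nfyb, Snrnp200, Cops8 and Pds5b (0.983). Acta2 itself had r of 0.998 with Myl9 and 0.985 with Actg2 but 0.480 with Myh11. Over the 9 C3-1-TAg libraries and 8027 genes Acta2 was most like Lum (0.989), Col5a2 (0.989), Mfap5 (0.986), Ctsk (0.980) and Tnfaip6 (0.979), of which Lum and Mfap5 stand in the fibroblast list. Myh11 was most like Gramd1a there (0.938), followed by Cd38, Cotl1, Impact and Furin (0.926), with Myh11 itself at no more than 0.371 RPKM in 8 of the 9 libraries.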

How the data were processed

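The deposited values are RPKM per gene, made by the authors in 3 separate tables. Per the labels' protocols, about 2000 sorted cells per library were processed with SmartSeq2 (18 PCR cycles), tagmented with Nextera XT (10 further cycles) and read from 1 end for 50 or 75 bp. Neither step marks strand. Per the submitters' processing notes, the tools were FastQC, HISAT2 2.0.5 and StringTie 1.3.1c and the build was mm9. The annotation, and whether a filter was applied, is not given in the sources used here. Symbols were matched ignoring case, and 2 was taken off each C3-1-TAg value above 0, since none of those lay under 2.001.

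Groups were taken from the sample titles and compared within a table with limma 3.58.1 (R 4.3.3, variance trend, all groups of a table in the fit, no replicate block) on log2(RPKM + 1). A gene was tested where 2 or more libraries (4 for C3-1-TAg) reached 1 RPKM. A fold change on this scale understates that of low genes. P-values were two-sided and adjusted over the whole table, threshold 0.05; the script was tested on simulated data. Median residual SDs on the log2 scale were 0.27 (normal), 0.17 (PY230) and 0.39 (C3-1-TAg), and depth relative to each table's first library, read from the steps between low values, ran from 0.384 to 1 (normal), 0.747 to 1.36 (PY230) and 0.633 to 1.28 (C3-1-TAg). These are rough estimates, since 2.69% to 11.7% of low genes shared the most frequent ratio. No counting interval is possible without read counts. In C3-1-TAg cells an exact permutation test was added.

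All 10 genes are named, with up to 3 genes a direction of each further list (largest log2 fold change past the threshold between fMaSC and adult basal cells), fixed single genes (Tpm1, Tpm2, Cald1, Myocd, Srf, Actb, Actg1, Myh9, Myh10) and the 5 most alike genes. Flna, Tagln2, Cacna1c and the single marker genes named were chosen after their values were seen. One gene that this rule names is not reported here. The members and lists were chosen with earlier results of these data known. Same-numbered libraries were checked for pairing: correlations of their deviations ran from 0.0004 to 0.221 in the normal table, -0.265 to 0.295 in PY230 and -0.338 to 0.203 in C3-1-TAg, so the numbers were not used as pairs. Transcript lengths, exon overlaps and 50-base stretches came from GENCODE on GRCm38, and promoters from RefSeq on GRCm38.p6. Alternatives were a pseudocount of 0.1, no filter, quantile and median-of-ratios scaling, rescaling to TPM, only the compared groups, a replicate block, each library left out, and, added later, the length trend removed.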

Additional observations from a re-analysis of the deposited data

Results flagged for a closer look

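Of 20 sets of C3-1-TAg libraries (10 genes in each of the groups of 5 and 4) 1 held a library that stood far from the others by Dixon's ratio of gap to range. Myh11 was at 0.800 RPKM in SOX10 low library 1, while the other 3 libraries of that group lay at 0.045 to 0.124 RPKM, a ratio of 0.866, past the limit for 4 libraries. Chance gives about 1 such set in 20. The same library was highest for Acta2, Tagln, the fibroblast list and the immune list.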

How the results depend on the processing

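Of 1153 recomputed single-gene values 1111 kept their direction and side of the threshold, 30 lost and 11 gained a call, and 1 reversed: Oxtr between fMaSC and adult basal cells, at 0.73 without adult basal library 1, and at -1.39 without library 2. Between fMaSC and adult basal cells 7 to 9 of the 10 genes passed. Actg2, Mylk, Tagln, Lmod1 and Smtn passed in 12 of 12 alternatives and Myh11 in 10 of 10, Acta2 in 11, Cnn1 in 6, Myl9 and Oxtr in 2. Between luminal progenitors and mature luminal cells 1 gene passed with a pseudocount of 0.1, without the filter, with TPM or with only the compared groups. Between luminal SOX10 high and low PY230 cells 1 passed without the filter, 0 to 2 when a library was left out, and at most 3 in any alternative. In the other comparisons counts of contractile genes stayed within 1.5 times the number reported. With 2 libraries a group, leaving 1 out assumes that the lone library varies like the rest. The counts with a replicate block, which come next, are given without the share over all genes. A replicate block, not supported by the check of pairing, gave 9 genes between fMaSC and adult basal cells, 10 and 10 for adult basal against the luminal populations, 8 and 9 for fMaSC against them, 0 between these, 10, 10 and 2 in PY230 and 0 in C3-1-TAg cells; Tagln against luminal progenitors became a call (adjusted p = 0.0337). Over all genes 7569 calls between fMaSC and adult basal cells became 4801 without fMaSC library 1 and 4875 without library 2. Precision is limited by the number of libraries, and depth is unknown.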
